A study of Mus musculus with 6 samples.

Results

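Klf3, Klf10 and Klf12 encode Krüppel-like factors (KLFs), and every probe set annotated to 1 of these 3 symbols and to no other was followed on the 6 arrays. That gave 12 of 45037 probe sets, of which 6 read Klf3, 1 read Klf10 and 5 read Klf12, and no probe set with several symbols held any of the 3. The genes had been picked because they stood out between the genotypes on these same arrays. Their genotype differences are therefore described here with no test. Each array held RNA from 1 mouse, with 3 Klf3-/- mice and 3 WT mice in all. Both genotypes were male littermates on the FVB/NJ background from crosses of heterozygous parents, aged 12 weeks, kept at 22 °C on standard chow and given no treatment. The Klf3-/- mice carried a disrupted Klf3 gene in every tissue, so they are not a model of loss in eosinophils alone, and the WT mice carried no engineered allele. Eosinophils were sorted from the stromal vascular fraction (SVF) of subcutaneous adipose tissue (subcut AT) by viability, by the surface proteins CD45, CD11b, Siglec-F and the product of Adgre1, and by high side scatter.

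The deposited values are linear intensities, and the array medians ranged from 35.4 to 58.7 in Klf3-/- mice and from 30.3 to 56.5 in WT mice. Fold changes were therefore taken on log2 values that had been quantile-normalised between arrays. Across the whole table the median log2 fold change was −0.03 once normalised and 0.13 as deposited. A level of 5.10 log2 units, or 34.2 on the intensity scale, marked what 44 olfactory receptor probe sets reached at their 95th percentile, and 55.3% of all probe sets lay above it. The labels call the cells eosinophils, yet 4 defining transcripts lay below that level: Siglecf, Ccr3, Epx and Prg2. They averaged 4.36, 3.62, 4.35 and 3.31 log2 units over the 6 arrays. Siglecf encodes the surface protein used in the gate. Of 11 measured eosinophil markers 3 lay above the level, and the word eosinophils stands below for the sorted cells.

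KLFs bind CACCC boxes and related GC-rich elements through zinc fingers at the end of the protein, while the rest of the protein differs between members and recruits different partners. KLF3 and KLF12 are repressors that bind the corepressor CtBP. KLF10, also called TIEG, is an early gene of TGF-beta signalling that recruits SIN3 and histone deacetylases. KLF promoters often carry the same elements, and KLF3 is known to act on other genes of its family, such as Klf8, in erythroid cells.

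The promoters of Klf3 and Klf12 are shown because the factors bind the elements that such promoters can hold. RefSeq windows on GRCm38.p6, a build of the C57BL/6J strain and not of FVB/NJ, were found for 2 of the 3 genes. Each run gives the 250 bases before the annotated start of the gene on its coding strand, with capitals for CACCC or its complement GGGTG. Klf3 lies on the plus strand and its window is chr5:64803271-64803520. Klf12 lies on the minus strand and its window is chr14:100149797-100150046.
Klf3: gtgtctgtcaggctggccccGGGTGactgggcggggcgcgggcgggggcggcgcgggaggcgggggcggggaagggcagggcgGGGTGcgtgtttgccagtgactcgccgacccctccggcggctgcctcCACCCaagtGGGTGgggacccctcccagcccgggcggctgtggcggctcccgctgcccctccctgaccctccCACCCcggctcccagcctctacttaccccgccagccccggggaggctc
Klf12: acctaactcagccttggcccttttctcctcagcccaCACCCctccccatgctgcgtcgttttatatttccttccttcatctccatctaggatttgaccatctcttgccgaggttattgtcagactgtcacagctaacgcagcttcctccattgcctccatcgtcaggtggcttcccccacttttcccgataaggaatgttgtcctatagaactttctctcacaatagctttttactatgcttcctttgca
The Klf3 window held 5 CACCC boxes, 2 forward and 3 reverse, and 6 GC boxes (GGGCGG on either strand), of which 1 overlapped a CACCC box. At least 5 CACCC boxes occurred in 0.667% of 32851 RefSeq promoter windows of this length, and at least 6 GC boxes in 0.886%. The Klf12 window held 1 CACCC box and no GC box, and at least 1 was found in 52% of windows for the CACCC box and in 32.7% for the GC box. The share of G and C was 78.4% for Klf3 and 48% for Klf12, against a median of 52.4% over all windows. At least the Klf3 share was found in 1.93% of windows and at least the Klf12 share in 66.2%. Motif counts were not compared with windows of a like share of G and C. These matches are letters in a reference sequence, and binding was not measured on these arrays.

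Of the 12 probe sets 11 had a higher mean in Klf3-/- eosinophils and 1 had a lower mean. In 9 of them every Klf3-/- array lay above every WT array after normalisation, in 1 every Klf3-/- array lay below, and in 2 the genotypes overlapped. Over all probe sets 4.49% were higher and 6.51% lower without overlap, and nothing is read from the members' share since the contrast chose them. As deposited, 10 were higher without overlap, 1 was lower and 1 overlapped, while over all probe sets 3.61% were higher and 0.244% lower in this way. Limma placed 0 of 45037 probe sets (0%) under an adjusted p of 0.05, members included. At an unadjusted p under 0.05 it gave 1398 higher (3.10%) and 1077 lower (2.39%) probe sets, and 1150 higher and 62 lower as deposited. Most of the measured stromal fibroblast and preadipocyte markers (12 of 13) also had higher means in Klf3-/- eosinophils. In bulk RNA of sorted cells, more cells of a type and more transcript per cell cannot be told apart.

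**Figure D1:**
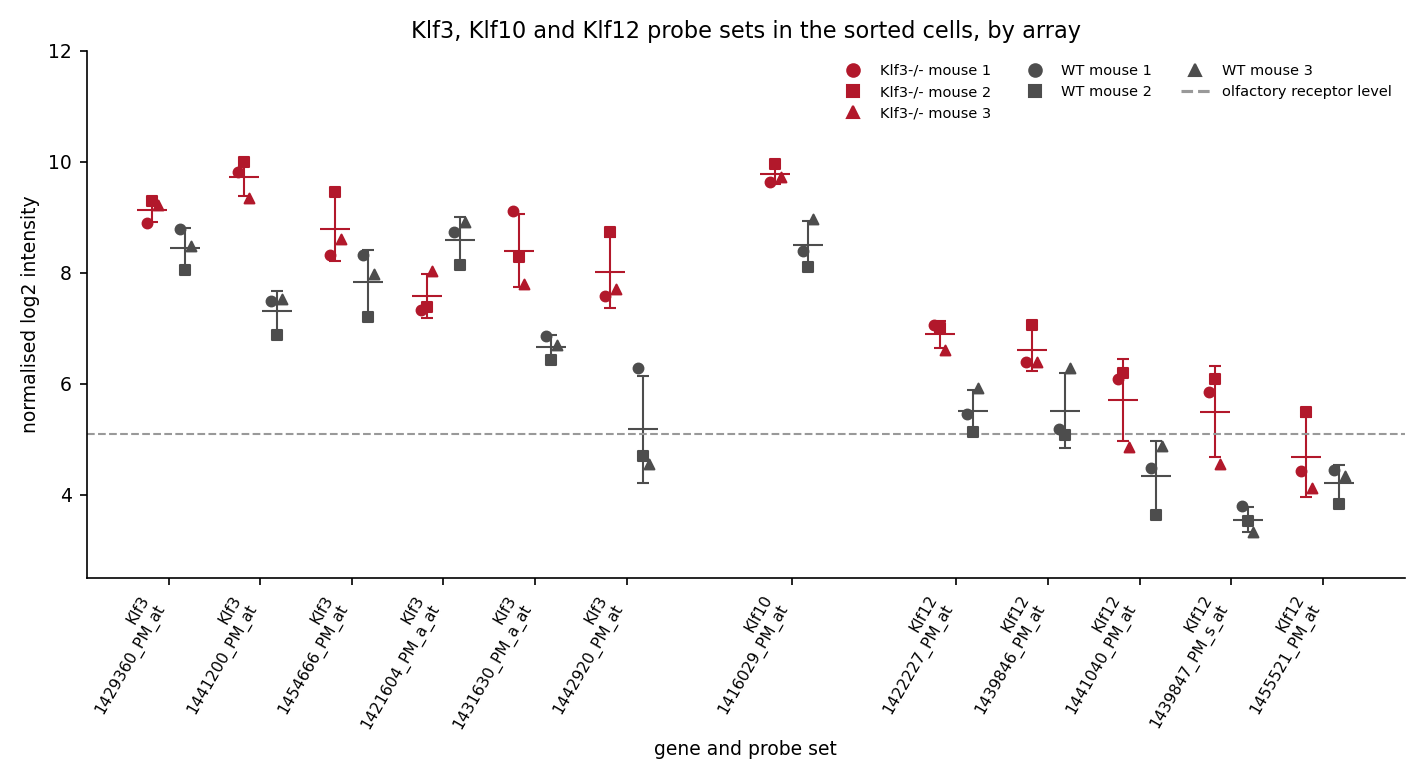
Normalised log2 intensity (y axis) of each Klf3, Klf10 and Klf12 probe set (x axis) in the 3 Klf3-/- mice (red) and the 3 WT mice (grey). Points are arrays, bars show the mean and SD of each genotype, with a dashed line at 5.10 log2 units for the olfactory receptors; 5 of the 6 Klf3 probe sets sit higher in Klf3-/- and 1421604_PM_a_at sits lower.

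Klf3 was read by 6 probe sets that did not run the same way. Probe set 1442920_PM_at, listed on an expressed sequence tag (EST), had the widest gap. Its deposited intensities were 211, 673 and 155 in Klf3-/- mice 1 to 3, against 67.3, 33.6 and 17.9 in WT mice 1 to 3. All Klf3-/- arrays were high, and WT mice 2 and 3 lay under the olfactory receptor intensity. After normalisation it averaged 8.01 ± 0.64 log2 units across the Klf3-/- arrays and 5.18 ± 0.96 across the WT arrays (n = 3 per genotype, SD), giving 2.83 as the log2 fold change (standard error 0.52). Probe set 1441200_PM_at, also listed on an EST, gave intensities of 955, 1605 and 475 in Klf3-/- mice and 155, 167 and 116 in WT mice. Here the lowest Klf3-/- array was well clear of the highest WT array. It averaged 9.72 ± 0.34 log2 units across the Klf3-/- arrays and 7.31 ± 0.37 across the WT arrays (n = 3 per genotype, SD), a 5.33-fold difference, or 2.41 as the log2 fold change (standard error 0.27). Probe set 1431630_PM_a_at, listed on a cDNA clone, gave intensities of 590, 486 and 166 in Klf3-/- mice and 100, 118 and 66.8 in WT mice. Its log2 fold change was 1.74 (standard error 0.34), and Klf3-/- mouse 3 lay nearest to the WT mice.

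Smaller gaps were seen in the Klf3 probe sets 1454666_PM_at and 1429360_PM_at. The first gave intensities of 350, 1096 and 287 in Klf3-/- mice and 273, 213 and 154 in WT mice. Klf3-/- mouse 2 stood far above the rest, and Klf3-/- mouse 1 exceeded WT mouse 1 by 0.0038 log2 units after normalisation. Its log2 fold change of 0.96 (standard error 0.39) was 0.63 without Klf3-/- replicate 2. The second gave intensities of 514, 978 and 437 in Klf3-/- mice and 377, 404 and 216 in WT mice. The genotypes did not overlap, and its log2 fold change was 0.69 (standard error 0.24).

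The sixth Klf3 probe set, 1421604_PM_a_at, is the 1 of the 6 that the platform lists on the RefSeq mRNA, and it was lower in Klf3-/- eosinophils. Its intensities were 178, 258 and 195 in Klf3-/- mice, against 360, 429 and 294 in WT mice. Every Klf3-/- array lay below every WT array. It averaged 7.58 ± 0.40 log2 units across the Klf3-/- arrays and 8.59 ± 0.41 across the WT arrays (n = 3 per genotype, SD), and its log2 fold change of −1.01 (standard error 0.29) put the WT mean 2.02-fold above the Klf3-/- mean. The study's genotyping detects a neomycin insertion in Klf3. The sources used here do not place the probe sets relative to the insertion, so these values leave the genotype unchecked. The suffix a_at, which this probe set shares with 1431630_PM_a_at, marks a set designed to read several transcripts of 1 gene.

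Dividing each Klf3 probe set by 1421604_PM_a_at on the same array removes the scale of that array, so that only the change between genotypes carries meaning and not the level of the ratio. For 1441200_PM_at the ratio was 5.37, 6.22 and 2.44 in Klf3-/- mice, against 0.431, 0.390 and 0.393 in WT mice, a 10.7-fold difference of geometric means. The WT mice were close together, and the Klf3-/- mice spread more widely, with mouse 3 the lowest. For 1442920_PM_at the ratio was 1.19, 2.61 and 0.799 in Klf3-/- mice and 0.187, 0.0784 and 0.0608 in WT mice, a 14.1-fold difference. The differences for 1431630_PM_a_at, 1454666_PM_at and 1429360_PM_at were 6.73-fold, 3.97-fold and 3.24-fold. Since all 5 were higher and 1421604_PM_a_at was lower without overlap as deposited, the ratios had to separate the genotypes, and only their size is a description here.

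**Figure D2:**
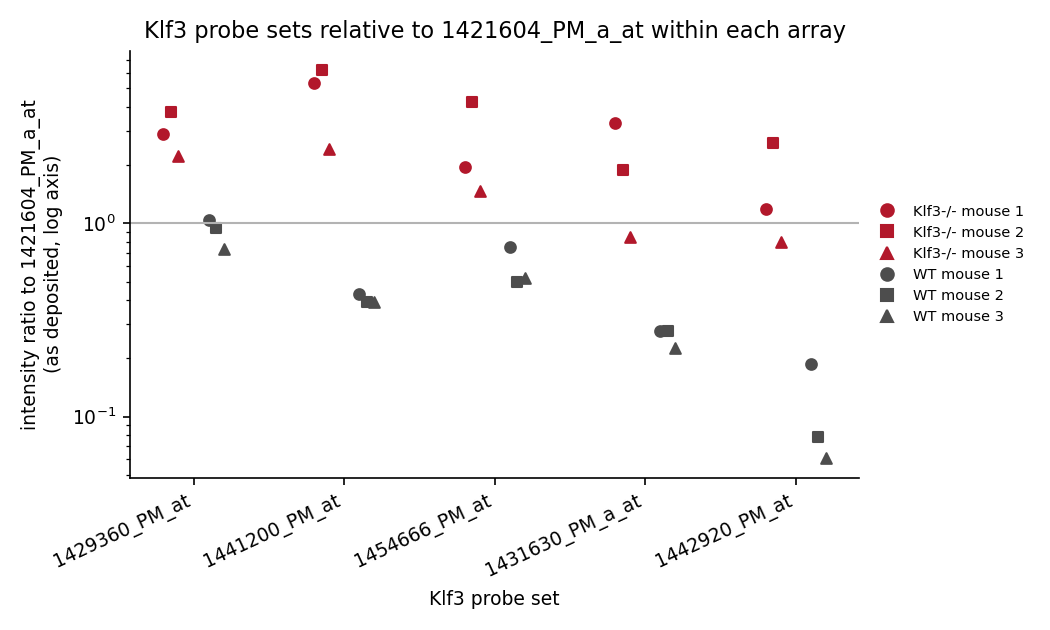
Deposited intensity of 5 Klf3 probe sets divided by that of 1421604_PM_a_at on the same array (y axis, log scale), by probe set (x axis). Each point is 1 mouse, Klf3-/- in red and WT in grey; every Klf3-/- point lies above every WT point of its probe set, and for 1441200_PM_at the Klf3-/- mice sit between 2.44 and 6.22 and the WT mice between 0.390 and 0.431.

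Klf10 was read by the single probe set 1416029_PM_at, listed on its RefSeq mRNA. Its deposited intensities were 842, 1561 and 625 in Klf3-/- mice, against 286, 423 and 306 in WT mice. Every Klf3-/- array lay above every WT array, and after normalisation the Klf3-/- mice were close together. They averaged 9.77 ± 0.17 log2 units, against 8.49 ± 0.44 in WT mice (n = 3 per genotype, SD). This was a 2.43-fold difference. The log2 fold change of 1.28 (standard error 0.26) lay between 1.09 and 1.52 when any 1 array was left out. Of all probe sets 1.12% had a larger log2 fold change. With 1 probe set, no second reading of Klf10 was at hand on these arrays.

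All 5 Klf12 probe sets had a higher mean in Klf3-/- eosinophils, but 2 of the 5 had a mean above the olfactory receptor level. The first, 1422227_PM_at, is listed on the RefSeq mRNA. Its intensities were 147, 194 and 75.8 in Klf3-/- mice and 37.9, 45.6 and 41.1 in WT mice. All Klf3-/- mice were higher, and the WT mice lay over the olfactory receptor level, at 5.46, 5.13 and 5.92 log2 units after normalisation. It averaged 6.89 ± 0.24 log2 units across the Klf3-/- arrays and 5.50 ± 0.40 across the WT arrays (n = 3 per genotype, SD), a 2.62-fold difference, or 1.39 as the log2 fold change (standard error 0.26). The second, 1439846_PM_at, gave intensities of 93.3, 204 and 65.5 in Klf3-/- mice and 31.2, 44.2 and 51.7 in WT mice. Its log2 fold change was 1.10 (standard error 0.37), but Klf3-/- mouse 3 exceeded WT mouse 3 by 0.10 log2 units after normalisation.

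The 3 remaining Klf12 probe sets were dim, and each is listed on an EST. Probe set 1439847_PM_s_at gave intensities of 63.6, 98.3 and 19.9 in Klf3-/- mice and 12.2, 15.5 and 7.75 in WT mice. All WT arrays and Klf3-/- mouse 3 were under the olfactory receptor level, so its log2 fold change of 1.95 (standard error 0.40) is measured against a group in the range of background. The suffix s_at marks probes that can match more than 1 transcript. Probe set 1441040_PM_at gave intensities of 75.2, 106 and 24.5 in Klf3-/- mice and 19.4, 16.5 and 22.0 in WT mice. The genotypes did not overlap as deposited, but they overlapped after normalisation, where the log2 fold change was 1.38 (standard error 0.45). Probe set 1455521_PM_at gave intensities of 22.7, 61.9 and 14.2 in Klf3-/- mice and 19.0, 18.9 and 15.4 in WT mice. Only Klf3-/- mouse 2 stood above the olfactory receptor level, and the log2 fold change of 0.47 (standard error 0.38) was 0.07 without that mouse.

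**Figure D3:**
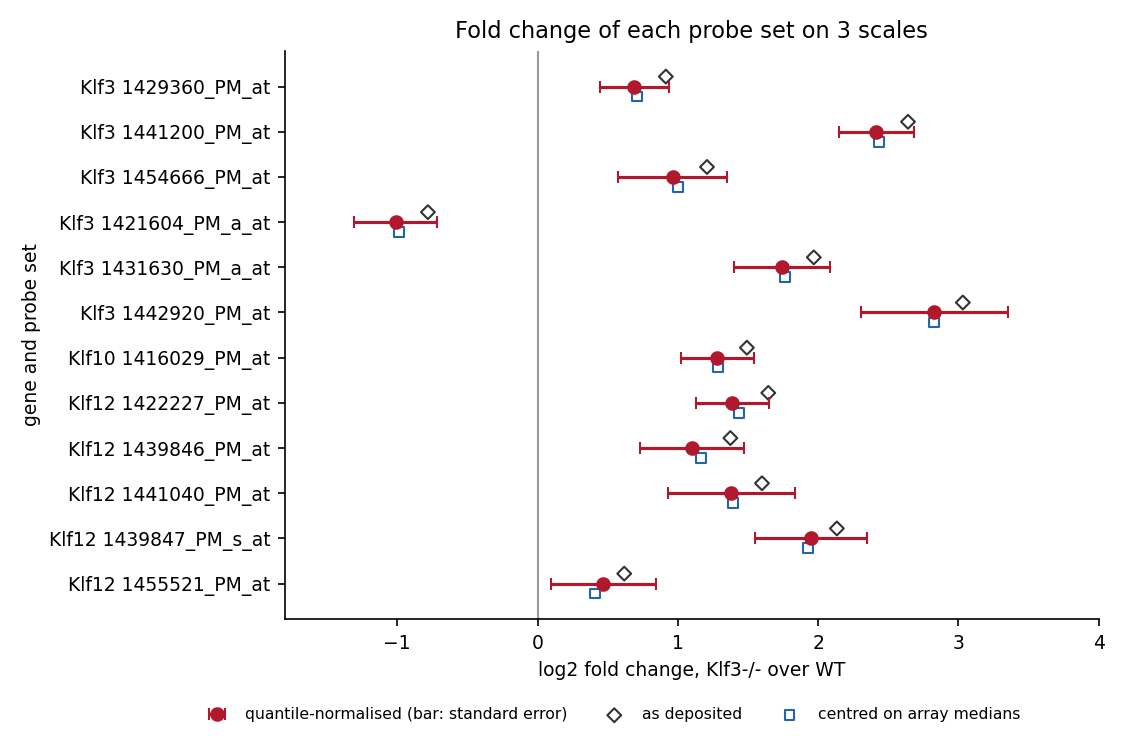
Log2 fold change, Klf3-/- over WT (x axis), of each probe set (y axis) after quantile normalisation (red circles, bars are standard errors, n = 3 arrays per genotype), as deposited (diamonds) and centred on array medians (squares). On all 3 scales 1421604_PM_a_at of Klf3 is below 0 and the other 11 are above 0, and the values as deposited lie to the right of the normalised ones.

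Set against all 45037 probe sets, the members lay at different depths of the range. A larger log2 fold change was seen in 0.0488% of probe sets for 1442920_PM_at, in 0.102% for 1441200_PM_at and in 0.435% for 1431630_PM_a_at of Klf3. For Klf12 the share ran from 0.28% for 1439847_PM_s_at to 8.86% for 1455521_PM_at. For 1421604_PM_a_at a smaller log2 fold change was seen in 0.651%. Since these genes were chosen by this contrast, the shares describe them and support nothing.

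The arrays did not contribute evenly. After normalisation Klf3-/- mouse 2 was the highest of the 6 arrays in 9 of the 12 probe sets, and WT mouse 2 was the lowest in 9. The labels call the mice litter-matched, and mice of the same number were taken as pairs. Within the 3 pairs, 9 probe sets were higher in the Klf3-/- mouse each time, 1 was lower each time and 2 went both ways, the 2 being Klf12 sets 1441040_PM_at and 1455521_PM_at. Of the 11 probe sets with a higher Klf3-/- mean, 10 had their largest difference in the second pair and 8 their smallest in the third. For Klf10 the differences were 1.24, 1.85 and 0.75 log2 units in pairs 1 to 3. For Klf12 1422227_PM_at they were 1.60, 1.88 and 0.70, and for Klf3 1441200_PM_at 2.32, 3.12 and 1.81.

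Deviations from the genotype mean show how far the probe sets varied together apart from the genotype difference that chose them. They are given as a description over 6 arrays, which share 1 preparation for all probe sets. Klf10 varied with the 2 Klf12 sets above the olfactory receptor level, at a Pearson r of 0.81 with 1422227_PM_at and 0.96 with 1439846_PM_at. With the other 3 Klf12 sets its r ran from −0.02 to 0.65. Klf12 1422227_PM_at and 1441040_PM_at had an r of 0.92. Between the 5 Klf3 sets that were higher in Klf3-/-, r ran from −0.12 to 0.89, with a median of 0.56. The pair at 0.89 was 1429360_PM_at and 1454666_PM_at. Klf3 1441200_PM_at varied more with Klf12 1422227_PM_at (r = 0.86) than with Klf3 1429360_PM_at (r = 0.53).

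Among the other KLF genes 11 of 14 listed were measured, 4 with a higher and 7 with a lower mean in Klf3-/- eosinophils. Their median log2 fold change was −0.13, against −0.04 over all 17097 genes. None passed in limma after adjustment over the whole table. At an unadjusted p under 0.05 there were 0 higher and 1 lower, where 3.61% and 2.47% of all genes were. The 1 was Klf15, a regulator of amino acid and lipid metabolism. It read 5.24 ± 0.22 log2 units across the Klf3-/- arrays and 5.85 ± 0.29 across the WT arrays (n = 3 per genotype, SD), without overlap after normalisation but with overlap as deposited. Its log2 fold change was −0.61 (standard error 0.23, limma adjusted p = 0.868). Over all genes 4.84% were higher and 6.55% lower without overlap after normalisation. The highest log2 fold change of the list belonged to Klf4, a factor of monocyte and epithelial differentiation. Klf4 read 10.2, 11.2 and 10.6 log2 units in Klf3-/- mice and 10.3, 9.74 and 10.5 in WT mice, so the genotypes overlapped at a log2 fold change of 0.49 (limma adjusted p = 0.928). Klf11, the closest relative of Klf10 and also a TGF-beta early gene, had a log2 fold change of 0.03 (standard error 0.32). The related SP genes, which bind GC boxes, had 7 of 9 measured, with a median of 0.12 and 0 at an unadjusted p under 0.05.

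**Figure D4:**
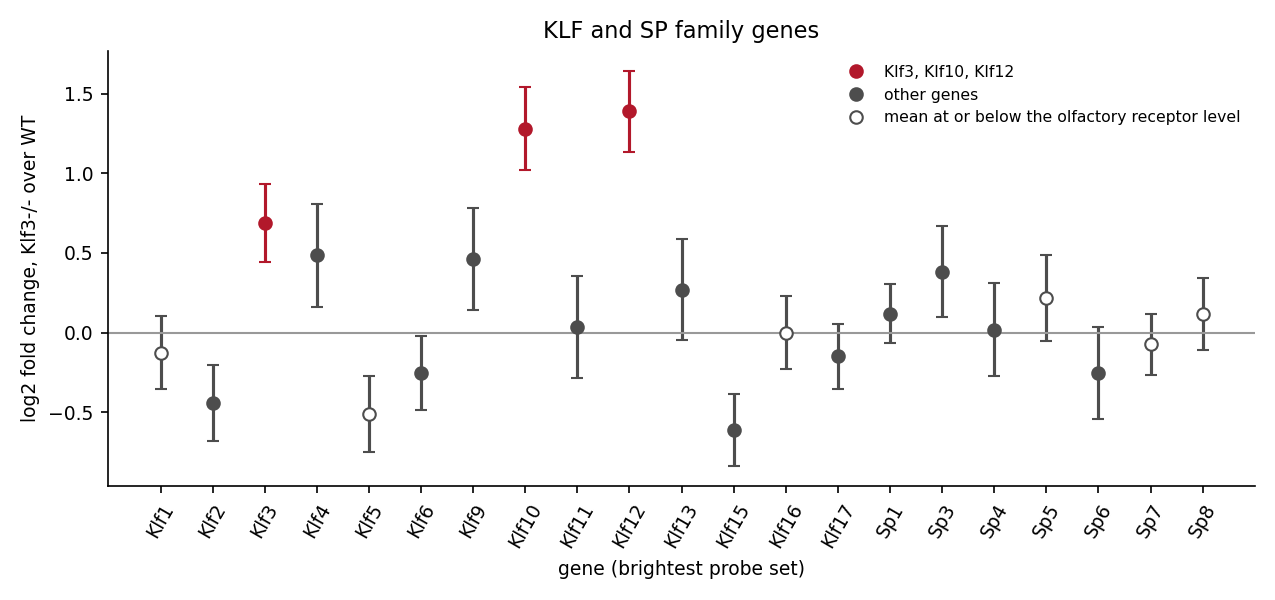
Log2 fold change, Klf3-/- over WT (y axis), of the brightest probe set of each measured KLF and SP gene (x axis), with standard errors (n = 3 arrays per genotype). Klf3, Klf10 and Klf12 are in red, and open circles have a mean at or below the olfactory receptor level; the red points sit at 0.69, 1.28 and 1.39 and the other genes between −0.61 and 0.49.

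The partners through which these factors act were measured on the same arrays. Of 16 corepressor genes 15 were measured, 5 with a higher and 10 with a lower mean, and a median log2 fold change of −0.17. None passed in limma, with 0 at an unadjusted p under 0.05 in either direction. Among all genes, 3.61% were higher and 2.47% lower at that level. Without overlap after normalisation the shares of all genes were 4.84% higher and 6.55% lower. The list counts were not tested against these shares. Ctbp1 and Ctbp2, the corepressors of KLF3 and KLF12, had log2 fold changes of 0.10 (standard error 0.20) and 0.09 (standard error 0.24). Sin3a, a partner of KLF10, had −0.22 (standard error 0.25). Fhl3, a LIM protein that binds KLF3, read 5.29 ± 0.14 log2 units across the Klf3-/- arrays and 4.91 ± 0.26 across the WT arrays (n = 3 per genotype, SD), with a log2 fold change of 0.38 (limma adjusted p = 0.910). Its genotypes did not overlap after normalisation, and its mean over all arrays was at the olfactory receptor level. Rcor1, a subunit of the CtBP complex, was lower without overlap at −0.40 (limma adjusted p = 0.910). Both Fhl3 and Rcor1 overlapped as deposited. Of the 3 reported KLF3 targets listed, 2 were measured, with log2 fold changes of 0.29 for Lgals3 and 0.25 for C1qtnf12, and the genotypes overlapped in both after normalisation. For Lgals3 there was no overlap as deposited, with Klf3-/- the higher. When the probe sets of each gene were averaged, 1 of these targets was higher at an unadjusted p under 0.05. It was C1qtnf12, which has 4 probe sets, as Lgals3 has 1 and its values do not change on averaging.

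As Klf10 is an early gene of TGF-beta signalling, 23 genes of that response and pathway were read alongside it. Of the 21 measured, 9 had a higher and 12 a lower mean, with a median log2 fold change of −0.08, and none passed in limma. At an unadjusted p under 0.05 there was 1 higher gene, Ccn1, and 1 lower gene, Bambi, where 3.61% and 2.47% of all genes were. Without overlap after normalisation 4.84% of all genes were higher and 6.55% lower, and the list counts were not tested against these shares. Ccn1, a matricellular protein, had a log2 fold change of 1.17 (limma adjusted p = 0.901), with overlap between genotypes after normalisation but none as deposited. With the replicate number as a block the list had 0 higher and 3 lower at that level, so the call of Ccn1 was lost. Bambi, a decoy receptor for TGF-beta, read 5.86 ± 0.24 log2 units across the Klf3-/- arrays and 6.85 ± 0.58 across the WT arrays (n = 3 per genotype, SD), with a log2 fold change of −0.99 (limma adjusted p = 0.862). Tgfbr2, a receptor for TGF-beta, was higher without overlap at 0.56 (limma adjusted p = 0.910). Tgfbr1, also a receptor for TGF-beta, had the lowest log2 fold change of the list at −1.26 (limma adjusted p = 0.919), with overlap. Klf3-/- mouse 3 read 5.64 log2 units for Tgfbr1, against 8.88 and 8.26 in Klf3-/- mice 1 and 2. Some KLF genes also respond to tissue dissociation. Of 23 genes of that response 21 were measured, 9 with a higher and 12 with a lower mean, with a median of −0.04 and 0 at an unadjusted p under 0.05. Jund and Ier2 were higher without overlap at log2 fold changes of 0.55 (limma adjusted p = 0.909) and 0.38 (limma adjusted p = 0.910), and Btg2 was lower at −0.29 (limma adjusted p = 0.916). As deposited the genotypes overlapped in Bambi, Jund, Ier2 and Btg2 but not in Tgfbr2.

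Markers of other cells were read on the same arrays, none of them passed the threshold in limma, and their part in the Klf3, Klf10 and Klf12 differences was not tested. Of 13 measured stromal markers 12 had a higher mean in Klf3-/- eosinophils, with a median log2 fold change of 0.95. At an unadjusted p under 0.05, 6 were higher and 0 lower. Over all genes 3.61% were higher and 2.47% lower at that level, and 4.84% higher and 6.55% lower without overlap after normalisation. These shares stand beside each marker list, and no count was tested against them. Igfbp6, which encodes a binding protein for insulin-like growth factors, had a log2 fold change of 1.88 (limma adjusted p = 0.20). Dpt, Mfap5 and Cd34 were also higher without overlap after normalisation, at 1.86 (limma adjusted p = 0.736), 1.48 (limma adjusted p = 0.663) and 1.34 (limma adjusted p = 0.736), and Dpt and Mfap5 overlapped as deposited. The summed intensity of the stromal list was 17580 to 28080 in Klf3-/- arrays and 10720 to 17830 in WT arrays on the normalised scale. All 13 lay above the olfactory receptor level, Col3a1 and Dcn being the brightest. Of 8 measured dendritic cell markers 7 had a lower mean, with a median of −0.59 and sums of 8853 to 11700 in Klf3-/- arrays and 11810 to 18220 in WT arrays. These sums did not overlap between genotypes, whereas the stromal sums did. Linear sums weigh the brightest genes most, here Cd74 and H2-Ab1 at 12.5 and 12.0 log2 units over the 6 arrays. In each of these 2 genes alone the genotypes overlapped. They also overlapped in Flt3, Xcr1 and Zbtb46, where WT mouse 2 stood above the rest at 10.1, 9.02 and 8.68 log2 units. WT mice 1 and 3 read 7.52 and 7.72 for Flt3, 6.78 and 6.65 for Xcr1, and 7.66 and 7.45 for Zbtb46. The lower Klf3-/- means of these genes thus rest largely on 1 WT array. At an unadjusted p under 0.05 the dendritic list had 2 lower genes, H2-Eb1 at −0.79 (limma adjusted p = 0.817) and Itgax, which encodes CD11c, at −1.69 (limma adjusted p = 0.60). As deposited the genotypes overlapped in H2-Eb1 but not in Itgax. Of 11 macrophage markers 9 had a higher mean, with a median of 0.14 and overlapping sums of 13550 to 28680 in Klf3-/- and 9606 to 19150 in WT, and Lyve1 was the 1 at an unadjusted p under 0.05, at 2.21 (limma adjusted p = 0.862). With the replicate number as a block, 2 macrophage markers were higher and 2 lower at that level. The eosinophil markers summed to 257 to 277 in Klf3-/- arrays and 263 to 274 in WT arrays, with a median of 0.02. Only 3 of these 11 lay above the olfactory receptor level, and the brightest, Il4, averaged 5.39 log2 units. These sums are mostly in the range of background and cannot compare eosinophil content between genotypes. Of the 4 genes for the surface proteins of the gate, 3 lay above the olfactory receptor level and Siglecf did not. Siglecf was lower without overlap after normalisation, at −0.42 (limma adjusted p = 0.91), but on values in the range of background. As deposited its genotypes overlapped. Medians were 0.29 for T and NK cell, −0.34 for B cell, −0.16 for endothelial and −0.11 for adipocyte markers, with overlapping sums. In the T and NK cell list Gata3 was higher without overlap, also as deposited, at 1.80 (limma adjusted p = 0.865), and was the 1 gene at an unadjusted p under 0.05. The B cell, endothelial and adipocyte lists had 0 at that level, and with the block the endothelial list had 1 lower. The brightest markers were C1qa and C1qb for macrophages, Cd74 and H2-Ab1 for dendritic cells, Cd3e and Cd3g for T and NK cells, Ms4a1 and Cd79a for B cells, Pecam1 and Cdh5 for endothelium, Lipe and Adipoq for adipocytes, Il4 and Prg3 for eosinophils and Ptprc and Adgre1 for the gate. Adipoq averaged 4.75 log2 units, below the olfactory receptor level. It read 7.10 in WT mouse 3 and 3.89 to 4.90 on the other arrays.

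The genes whose pattern over the 6 arrays was most like that of each member were found among 11112 genes above the olfactory receptor level, using the brightest probe set. These correlations contain the genotype difference of the member and carry no test. Nearest to Klf10 were Lrp1 (r = 0.996), Ddr2 (r = 0.996), Cyp2j6 (r = 0.991), Ckap4 (r = 0.990) and Efhd1 (r = 0.990). Lrp1 encodes an endocytic receptor and Ddr2 a collagen receptor. Lrp1 averaged 9.89 ± 0.18 log2 units across the Klf3-/- arrays and 8.92 ± 0.27 across the WT arrays (n = 3 per genotype, SD). Nearest to Klf12 1422227_PM_at were Cyp26b1 (r = 0.995), which degrades retinoic acid, Fam114a1 (r = 0.983), Lynx1 (r = 0.975), Sult1e1 (r = 0.974), an oestrogen sulfotransferase, and Lbp (r = 0.974), the lipopolysaccharide-binding protein. Nearest to Klf3 1429360_PM_at were Frrs1 (r = 0.987), D130051D11Rik (r = 0.986), Bbs4 (r = 0.984), Rab5a (r = 0.983) and Tgfbr2 (r = 0.982). Of the 11112 genes, 26 had an r over 0.95 with Klf3, 36 with Klf10 and 25 with Klf12. An r under −0.95 was as common, in 38, 33 and 21 genes. These counts were not tested against what 6 arrays give for unrelated genes. The order rests on few arrays, since 3 to 5 of the 15 named genes were named again when any 1 array was left out.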

How the data were processed

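Per the labels and the study's methods, RNA amplified with an IVT Pico Kit was put on HT MG-430PM arrays, 1 per mouse. The authors used Partek Genomics Suite, a legend names RMA normalisation without its steps, and the deposited values are linear intensities. As the highest array median was 1.94-fold the lowest, log2 values were quantile-normalised between arrays. Genotypes were compared with limma 3.58.1 in R 4.3.3 (lmFit and eBayes, genotype as the only term), with Benjamini-Hochberg adjustment over 45037 probe sets and a threshold of 0.05. Plots were made in matplotlib 3.10.9. Precision is limited by 3 arrays per genotype.

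Symbols came from the platform annotation, with 1 symbol for 28898 probe sets, several for 551 and none for 15588. The brightest probe set stood for each gene outside the members. The members and all gene lists were chosen with earlier results of these data known. Named genes are all members, up to 4 genes per list with the smallest p among those without overlap, the 2 brightest markers per cell type, and the 5 genes most alike to each member. Klf4, Klf11, Ctbp1, Ctbp2, Sin3a, Lgals3, C1qtnf12, Ccn1, Tgfbr1, Flt3, Xcr1 and Zbtb46 were named outside that rule, after their values were seen. Promoters came from RefSeq on GRCm38.p6.

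The labels call the mice litter-matched, and the number was taken to pair them. Deviations from the genotype means had an r of 0.168, 0.225 and 0.207 between arrays of the same number. Between arrays of different number r ran from −0.179 to −0.0128. Deviations sum to 0 within each genotype, so the second range follows in part from the first and adds no support. These r values are low, and the pairing itself was not tested. The study's other assays were not analysed here. The fit was tested on simulated data. Alternatives were other scalings, a pseudocount, the replicate block, trend, robust fitting, array weights, a filter on dim probe sets, averaging a gene's probe sets and omitting each array.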

Additional observations from a re-analysis of the deposited data

How the results depend on the processing

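No probe set passed an adjusted p under 0.05 under any alternative run, and all 12 member fold changes kept their sign as deposited, centred on array medians, with a pseudocount, with the replicate block and without each array. The replicate block gave 0 past the threshold, 1734 higher and 1478 lower probe sets at an unadjusted p under 0.05, and no list gained a gene past the threshold. Standard errors printed with the results come from the fit without the block. With the block they shrank for 1421604_PM_a_at (0.29 to 0.21), 1431630_PM_a_at (0.34 to 0.27) and 1439847_PM_s_at (0.40 to 0.30). For every other member they grew, as for 1454666_PM_at (0.39 to 0.45). At an unadjusted p under 0.05 the block moved the counts of the TGF-beta, macrophage and endothelial lists by over 1.5 times, as given beside them. Over all settings with every array, the block included, 18 list counts at that level moved and 94 did not. Without 1 array 21 moved and 147 did not. The 1 lower gene among other KLF and SP genes was lost as deposited and without Klf3-/- replicate 2 or 3. In that list 1 gene was higher with averaged probe sets and without Klf3-/- replicate 3. The TGF-beta list had 0 lower as deposited. Probe sets lower at an unadjusted p under 0.05 numbered 62 as deposited and 571 with only those above the olfactory receptor level, against 1077 in the normalised fit. Without each array in turn, 0 passed, 1128 to 1610 were higher and 883 to 1208 lower, and 9 to 10 members were higher and 1 lower without overlap. Klf12 1439847_PM_s_at fell to a log2 fold change of 1.17 with a pseudocount of 16 added before taking logs, against 1.95 without it, and Klf12 1455521_PM_at ranged from 0.29 to 0.62 over the scalings and the pseudocount. Of the 15 genes named for likeness, 5 were named again as deposited and 3 to 5 without 1 array. Dim probe sets limit Klf12 most, since 3 of its 5 sets had a mean below the olfactory receptor level.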
